A study of Homo sapiens with 18 samples.

Results

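RNA was measured by sequencing in HEK-293E cells, a human embryonic kidney line that expresses an Epstein-Barr virus nuclear antigen, after 1 h of feeding and in starved cells. The comparison used 6 of the 18 libraries of the study, namely the 3 libraries of cells fed for 1 h and the 3 of starved cells, both without Torin1, and covered all 16414 genes that passed a filter on low counts. Per the labels' protocols, starved cells had been kept overnight in DMEM with 0.1% fetal bovine serum, and fed cells were then given growth medium, that is high-glucose DMEM with 10% serum and antibiotics. The question was which genes change first when cells that lack serum are fed. Fresh medium and the added serum came together, so their parts cannot be told apart. The other groups of the study are also used below, with 3 libraries each. These were cells fed for 1 h in Torin1, which inhibits the kinase mTOR, starved cells with Torin1, and cells fed for 4 h with or without it. Cells fed for 4 h with Torin1 enter only the fits over all libraries and the figure of levels over feeding time. Neither the Torin1 dose nor its duration is known from the labels. All groups are the same line in culture, and nothing in the labels says that libraries of 1 group came from separate cultures, and p-values thus cover only the scatter among these libraries, which may be technical.

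Serum carries growth factors, lipids, hormones and metal ions. Growth factors act through the ERK kinases and serum response factor on immediate early genes, which are transcribed without new protein synthesis and whose short mRNAs decay quickly. They also act through AKT, which keeps FOXO transcription factors out of the nucleus and so silences genes of quiescence, and bone morphogenetic proteins in serum act through SMAD factors on the ID genes. Nutrients act on mTOR complex 1, which drives ribosome production.

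The 6 libraries held between 10510689 and 12613728 counts, so that a gene with no count could have stood as high as 0.238 to 0.285 CPM, taking 3 counts as the limit and covering counting error only. CPM is a count scaled to a common library total, is not adjusted for transcript length, and is compared below between libraries and never between genes. Mitochondrially encoded RNA took 2.95%, 3.07% and 2.99% of counts in the 1 h fed libraries and 1.87%, 2.24% and 2.59% in the starved libraries, without overlap. In a principal component analysis of the 6 libraries, component 1 (27.7% of the variance) did not separate the groups, with the 1 h fed libraries at −24.7, 20.7 and 37.8 and the starved libraries at −32, −1.07 and −0.73. Component 2 (21.1% of the variance) put the 1 h fed libraries at −37.9, −5.82 and −10.8 and the starved libraries at 11.5, 19.4 and 23.7, with 1 h fed replicate 1 far from the rest. The 9 neural genes that HEK-293 cells are known to express summed to between 839 and 1072 CPM in 1 h fed and between 869 and 1062 CPM in starved libraries, and 10 of 14 embryonic kidney genes passed the filter. Of other cell types, 5 of 10 fibroblast, 4 of 12 immune and 1 of 8 endothelial markers passed, with summed levels of 10.1 to 28.9, 3.95 to 5.51 and 0.51 to 1.16 CPM in 1 h fed libraries and 10.8 to 42.9, 3.84 to 5.97 and 0.46 to 1.07 CPM in starved libraries. PTPRC, PECAM1 and PDGFRB, which define immune, endothelial and stromal cells, did not pass. In bulk RNA, fewer cells of a kind and less RNA per cell cannot be told apart.

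Promoter sequences of 4 genes that frame the response are shown, each as the 250 bases before the RefSeq transcription start in build GRCh38.p14, written 5′ to 3′ on the gene's strand. EGR1 stands for immediate early genes, FOSB for the same class, MT1X for metal response and TXNIP for the genes that fell. Capitals mark, in EGR1, 2 matches to the CArG box, the element bound by serum response factor; in FOSB, a match to TGACG, the core of the element bound by CREB; in MT1X, 4 matches to the metal response element, TGCACNC or TGCGCNC; and in TXNIP, a match to GTAAACA, the element bound by FOXO factors.
EGR1, chr5:138465229-138465478, plus strand: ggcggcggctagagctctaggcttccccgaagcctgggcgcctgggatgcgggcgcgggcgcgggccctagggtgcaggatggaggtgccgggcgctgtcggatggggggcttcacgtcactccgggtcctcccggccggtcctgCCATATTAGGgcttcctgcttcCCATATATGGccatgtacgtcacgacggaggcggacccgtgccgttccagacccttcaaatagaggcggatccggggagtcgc
FOSB, chr19:45467746-45467995, plus strand: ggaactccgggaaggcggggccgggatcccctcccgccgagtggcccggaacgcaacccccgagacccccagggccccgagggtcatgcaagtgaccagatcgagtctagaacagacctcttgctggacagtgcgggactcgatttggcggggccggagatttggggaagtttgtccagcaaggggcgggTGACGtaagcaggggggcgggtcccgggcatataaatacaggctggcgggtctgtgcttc
MT1X, chr16:56682220-56682469, plus strand: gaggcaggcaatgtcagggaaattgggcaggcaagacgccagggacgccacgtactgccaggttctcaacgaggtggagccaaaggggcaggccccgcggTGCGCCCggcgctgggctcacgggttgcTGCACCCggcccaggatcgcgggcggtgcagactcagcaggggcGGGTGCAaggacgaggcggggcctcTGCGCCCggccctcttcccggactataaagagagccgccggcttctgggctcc
TXNIP, chr1:145996580-145996829, minus strand: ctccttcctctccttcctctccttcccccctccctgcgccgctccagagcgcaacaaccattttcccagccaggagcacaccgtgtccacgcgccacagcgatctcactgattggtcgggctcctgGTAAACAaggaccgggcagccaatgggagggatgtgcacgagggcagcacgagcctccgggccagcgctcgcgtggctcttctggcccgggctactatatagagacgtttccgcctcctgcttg

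These motifs were searched on both strands in windows from 250 bases before to 50 bases after the start, using the first window listed for each symbol. A window was found for 63 of the 79 genes higher after feeding, for 22 of the 27 lower ones and for 11703 of the 16414 genes tested. A CArG box lay in 1 of the 63 (1.59%, EGR1 itself), in 0 of the 22, in 0.983% of genes tested and in 1.29% of all 27305 windows. TGACG lay in 36.5% of windows of higher genes, 31.8% of lower genes, 34.2% of genes tested and 25% of all windows, and the metal response element in 31.7%, 36.4%, 39.1% and 29.3% in the same order. GTAAACA lay in 1 of 63 windows of higher genes (1.59%), in 2 of 22 of lower genes (9.09%, TXNIP and the WNT pathway gene FRAT2), in 2.29% of genes tested and in 3.41% of all windows. A match is a description of the letters in a window and does not show that a factor binds there.

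One hour of feeding changed few genes, and more of them rose than fell. Among 16414 genes, 106 were called at an edgeR adjusted p under 0.05, which is 0.646%. Of these, 79 were higher after feeding (0.481%) and 27 lower (0.164%). Changes of at least 2-fold numbered 29 among the higher and 3 among the lower genes (TXNIP, KCNQ1OT1 and ENSG00000271918). ENSG00000271918, an RNA named after its values were seen, had 0.184, 0.254 and 0.0893 CPM in fed and 1.17, 1.59 and 1.01 CPM in starved libraries, and the fed values were close to or under the level of 3 counts. All 106 called genes had no overlap between the 3 fed and the 3 starved libraries, a state found in 6.48% of all genes tested in the upward and 5.85% in the downward direction. The 79 higher genes stand for 76 distinct measurements, because 3 RNAs of chromosome 21 share 1 row of values and the histone genes H3C14 and H3C15 another. Counts depended on single libraries. Without 1 h fed replicate 1 there were 248 calls, 88 of them among the 106, and without any other single library of the 2 groups between 55 (without starved replicate 2) and 66 (without starved replicate 1). Of the 106 genes, 22 were called under each of the 15 alternative settings and left-out libraries, and these include FOSB, EGR3, ID1, MT1X, MIR22HG, SNHG12, PLAGL2, EIF4A2, TXNIP, GAS1, DLX1, ISL2 and LRIG3.

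**Figure D1:**
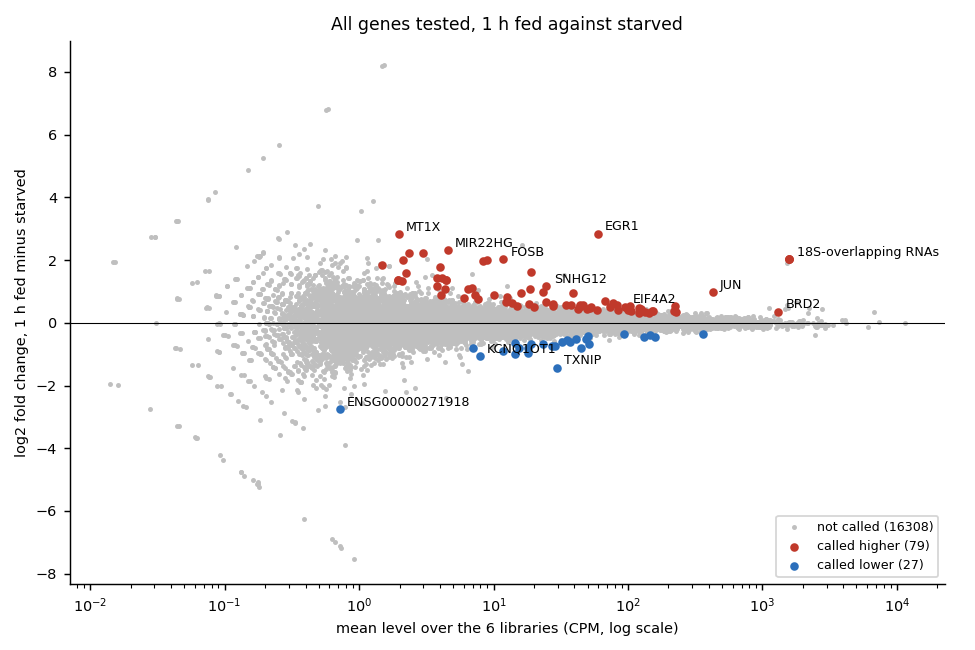
Log2 fold change of 1 h fed minus starved cells (vertical axis) against the mean level over the 6 libraries in CPM (horizontal axis, log scale) for 16414 genes. The 79 genes called higher are red and the 27 called lower are blue; many large fold changes at low levels were not called.

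A few immediate early transcription factors rose. EGR1, a zinc finger factor induced by growth factors through ERK, stood at 153, 77.0 and 84.1 CPM in 1 h fed libraries and at 21.1, 11.9 and 11.3 CPM in starved libraries. Every fed library lay above the highest starved one, and 1 h fed replicate 1 was the highest. The log2 fold change was 2.83 (SE 0.34, edgeR adjusted p = 0.00205). EGR3, a relative of EGR1, had 17.4, 11.8 and 14.1 CPM in fed libraries, against 4.76, 3.34 and 2.66 CPM in starved libraries. FOSB, a partner of JUN proteins in the AP-1 dimer, had 24.8, 16.4 and 15.7 CPM after feeding, against 5.93, 5.01 and 3.03 CPM in starvation. Their log2 fold changes were 2.01 (SE 0.29) and 2.02 (SE 0.31). JUN, the partner of FOS proteins in AP-1, was at 625, 587 and 488 CPM in fed libraries and at 399, 245 and 223 CPM in starved libraries, with starved replicate 1 closest to the fed group. Its log2 fold change was 0.97 (SE 0.19, edgeR adjusted p = 0.0315). The calls of EGR1, EGR3 and FOSB held with any 1 of the 6 libraries left out, while EGR1 lost its call (adjusted p = 0.139) when edgeR was fitted on only the 2 groups. JUN was called in 1 of these 6 fits, the one without starved replicate 1, with adjusted p up to 0.16 in the others.

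The rest of the list was uneven. Of 28 immediate early transcription factors listed, 27 passed the filter, 4 rose, 0 fell and 23 were not called, and the median log2 fold change was 0.19, against 0.01 for all genes tested. FOS had a log2 fold change of 1.17 with an adjusted p of 0.103, EGR2 one of 0.86 and CSRNP1 one of 0.79, without a call. Several members stood near 0, among them NR4A2 (−0.01), SRF (−0.02), KLF6 (−0.06) and NR4A1 (−0.13). MYC, a driver of growth genes, had a log2 fold change of 0.20 (adjusted p = 0.58). Without 1 h fed replicate 1, 3 members were higher and 1 lower.

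**Figure D2:**
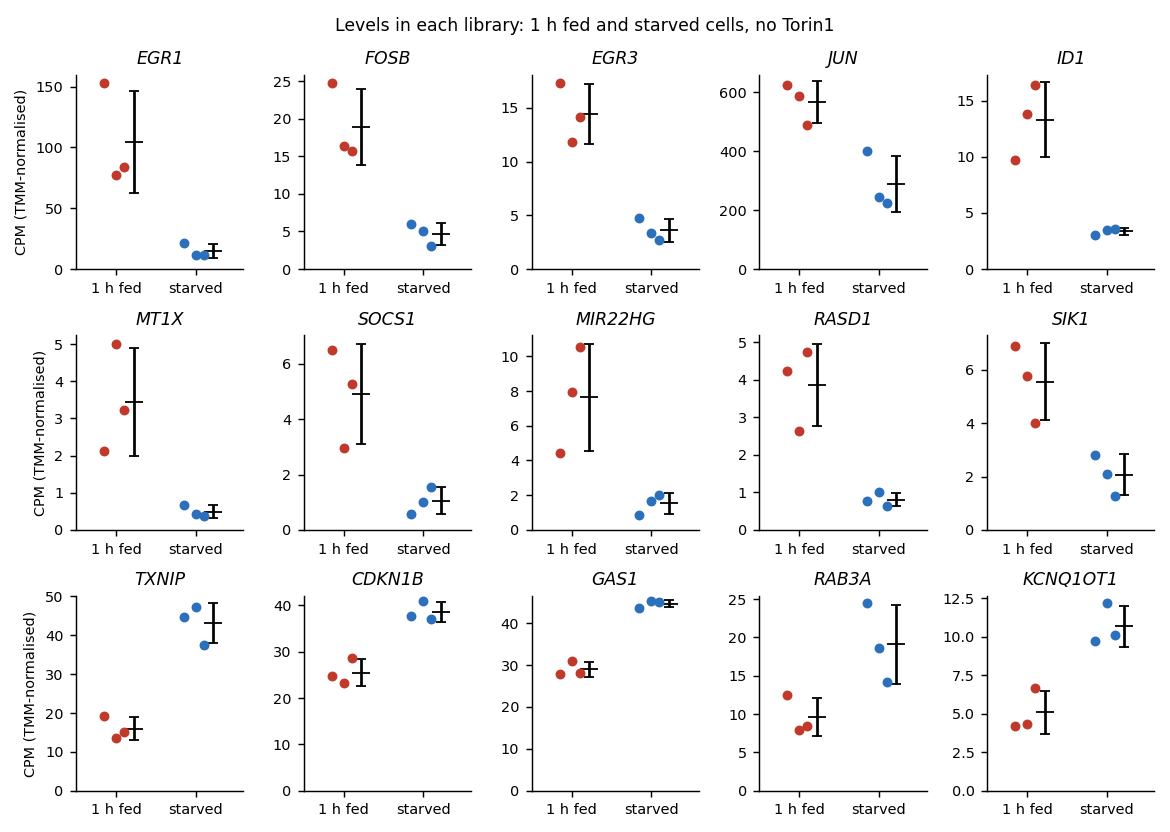
Level of 15 genes in CPM (vertical axis, linear and starting at 0) in each 1 h fed library (red, left) and each starved library (blue, right), with the mean and SD of 3 libraries in black. The groups do not overlap in any panel; EGR1 reached 153 CPM in 1 h fed replicate 1 and 77.0 and 84.1 CPM in the other two.

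Other immediate early genes, which encode kinases, inhibitors and mRNA decay factors, held calls in both directions. Of 40 listed, 37 were tested, 3 rose, 2 fell and 32 were not called, with a median log2 fold change of 0.05. ID1, an inhibitor of basic helix-loop-helix factors and a target of SMAD signalling, had 9.73, 13.8 and 16.3 CPM in fed libraries, against 3.01, 3.51 and 3.58 CPM in starved libraries. The starved values were tight and the lowest fed value was well above them, and its log2 fold change was 1.98 (SE 0.22, edgeR adjusted p = 6.69e-06). SIK1, a kinase that restrains CREB coactivators, had 6.89, 5.76 and 4.02 CPM after feeding, against 2.82, 2.09 and 1.29 CPM in starvation. GADD45B, a stress sensor that binds MAP kinase kinases, had 54.5, 40.3 and 58.2 CPM in fed and 30.8, 27.4 and 21.8 CPM in starved libraries. PIM1 and PIM3, kinases that promote survival, fell instead. PIM1 had 27.2, 18.6 and 19.2 CPM in fed libraries and 36.2, 40.9 and 30.6 CPM in starved libraries, a log2 fold change of −0.73 (SE 0.16), and PIM3 one of −0.45 (SE 0.09). ID1 was called in all 6 fits that left out 1 library, PIM3 in 3, and SIK1, GADD45B and PIM1 in 2 each, with adjusted p up to 0.24, 0.17 and 0.18 for these last. The split of 3 higher and 2 lower became 1 and 5 without 1 h fed replicate 1, 2 and 0 without 1 h fed replicate 2, 2 and 1 without 1 h fed replicate 3, 5 and 0 without starved replicate 1, 1 and 0 without starved replicate 2, and 1 and 2 without starved replicate 3.

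Among targets of BMP and TGF-beta signalling, 3 of 19 tested genes rose, 0 fell and 16 were not called, with a median log2 fold change of 0.19. Beside ID1 these were HEY1, a repressor downstream of Notch and BMP (0.43, SE 0.08), and SKI, a corepressor of SMADs (0.33, SE 0.08). ID3 and ID4 had log2 fold changes of 0.53 and 0.43 with adjusted p of 0.081 and 0.084, and the inhibitory SMADs SMAD6 and SMAD7 had −0.03 and −0.13. Without 1 h fed replicate 1, 5 members were higher, and without 1 h fed replicate 2, 1 was. SKI was not called with DESeq2 size factors or total counts, nor in 4 of the 6 fits with 1 library left out, and HEY1 was not called without 1 h fed replicate 2 or starved replicate 3.

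The feedback inhibitors of ERK signalling, which usually follow its activation, gave 0 higher and 1 lower gene among 18 tested, with a median of 0.08. The lower gene was SPRY1, an inhibitor of receptor tyrosine kinase signalling, at 15.8, 8.64 and 9.38 CPM in fed and 22.3, 19.2 and 17.1 CPM in starved libraries (log2 fold change −0.79, SE 0.18). Its groups came close in 1 h fed replicate 1 and starved replicate 3, and it was called in 2 of the 6 fits with 1 library left out. DUSP5, an ERK phosphatase, had a log2 fold change of 0.85 (SE 0.27, adjusted p = 0.244), DUSP6 one of 0.04 and DUSP1 one of 0.28. SOCS1 and RASD1, chosen after their values were seen, rose. SOCS1, a feedback inhibitor of cytokine receptors, had 6.52, 2.97 and 5.27 CPM after feeding, against 0.583, 1.00 and 1.56 CPM in starvation. RASD1, a small GTPase induced by glucocorticoids, had 4.22, 2.63 and 4.73 CPM, against 0.777, 1.00 and 0.643 CPM. Both were called in 2 of the 6 fits with 1 library left out.

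TXNIP, CDKN1B and GAS1 fell. TXNIP, an arrestin-like protein that restrains glucose uptake and binds thioredoxin, had 19.2, 13.5 and 15.1 CPM in 1 h fed libraries, against 44.6, 47.4 and 37.4 CPM in starved libraries. Every fed library lay below every starved one by a wide margin. Its log2 fold change was −1.44 (SE 0.16, edgeR adjusted p = 6.69e-06), and it had a call in all 6 fits with 1 library left out. Its paralogue ARRDC4 had a log2 fold change of −0.13 (SE 0.10) and MLX, a partner of the glucose-sensing factor MondoA, one of −0.24 (SE 0.08), neither called. Among 14 tested genes of that list TXNIP was the only call. CDKN1B, the cyclin-dependent kinase inhibitor p27, had 24.7, 23.1 and 28.7 CPM in fed and 37.7, 41.0 and 37.0 CPM in starved libraries (−0.60, SE 0.11, edgeR adjusted p = 0.00253, and 0.0512 with only the 2 groups fitted). GAS1, a gene of growth arrest, had 27.8, 31.0 and 28.2 CPM in fed libraries and 43.6, 45.2 and 45.1 CPM in starved libraries (−0.62, SE 0.12).

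Of 29 FOXO target genes tested, 0 rose, 2 fell (TXNIP and CDKN1B) and 27 were not called, with a median of −0.08 and positive values in 9. PIK3IP1, an inhibitor of PI3 kinase, had 2.11, 1.02 and 1.16 CPM in fed and 3.60, 3.43 and 2.11 CPM in starved libraries without a call (−1.09, SE 0.33, adjusted p = 0.155), and 1 h fed replicate 1 and starved replicate 3 were both at 2.11 CPM to 3 digits. IRS2, CCNG2 and FOXO3 had log2 fold changes of −0.23, −0.08 and −0.01. Without 1 h fed replicate 1, 4 members were lower.

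The other large falls were outside the lists above and are named by their size. LRIG3, a membrane protein related to the growth factor receptor inhibitor LRIG1, had 35.7, 31.4 and 30.6 CPM in fed libraries and 49.3, 62.5 and 57.0 CPM in starved libraries (−0.79, SE 0.11, edgeR adjusted p = 0.000168). LRIG1 itself fell by 0.43 on the log2 scale (SE 0.10) and lost its call without 1 h fed replicate 1, 1 h fed replicate 3, starved replicate 2 or starved replicate 3. RAB3A, a GTPase of vesicle release, had 12.5, 7.88 and 8.49 CPM after feeding, against 24.5, 18.6 and 14.1 CPM in starvation. KCNQ1OT1, an imprinted antisense RNA of the KCNQ1 locus, had 4.22, 4.32 and 6.70 CPM, against 9.72, 12.2 and 10.1 CPM. NPPC, the C-type natriuretic peptide gene, and SLC35G2, a putative solute carrier, had log2 fold changes of −0.95 (SE 0.21) and −0.74 (SE 0.15). LRIG3 was called in all 6 fits with 1 library left out, SLC35G2 in 3, RAB3A and NPPC in 2 each and KCNQ1OT1 in 1, the one without 1 h fed replicate 3. RAB3A, KCNQ1OT1, LRIG1 and SLC35G2 overlap genes on the opposite strand. So do 12 of the 27 lower and 28 of the 79 higher genes, and 6466 of all 16414 genes tested. Strand use in counting is not given in the sources used here, so reads of such genes cannot be told apart from those of their neighbours.

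Developmental transcription factors were also among the 27 lower genes, a group chosen after the values were seen. DLX1, a homeobox factor of forebrain and limb, had 14.1, 13.1 and 12.1 CPM in fed and 24.2, 23.6 and 21.2 CPM in starved libraries (−0.81, SE 0.13, edgeR adjusted p = 0.00102). ISL2, a homeobox factor of motor neurons, had 35.9, 40.5 and 42.3 CPM, against 67.8, 66.5 and 56.1 CPM (−0.68, SE 0.12). HLX (−0.80, SE 0.19) and HOXB2 (−0.65, SE 0.15) were the other homeobox genes called. Of 123 homeobox genes picked by symbol, 4 fell (3.25%, against 0.164% of all genes tested), 0 rose and 119 were not called. Positive values were found in 32 (26%, against 51.7% of all genes). The median of the 123 was −0.15 under the main scaling, −0.16 with DESeq2 size factors and −0.18 under scaling by total counts. FOXB1, a forkhead factor (−0.89, SE 0.17), and ZIC5, a zinc finger factor (−0.52, SE 0.11), fell as well. ISL2, HLX and HOXB2 overlap genes on the opposite strand. DLX1 and ISL2 were called with any 1 library left out, while HLX was called in 1 of 6 fits and FOXB1 in 5, and 2 homeobox genes were lower without 1 h fed replicate 2, 1 h fed replicate 3 or starved replicate 2. HOXB2 lost its call without 1 h fed replicate 2, 1 h fed replicate 3, starved replicate 1 or starved replicate 2.

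Zinc finger genes made up a large part of the genes that rose, a group also chosen after the values were seen. Of the 79 higher genes, 17 (21.5%) carry symbols of zinc finger families, against 3.17% of all genes tested. Of the 521 such genes tested, 17 rose, 1 fell (ZNF764) and 503 were not called, and 373 had positive log2 fold changes (71.6%, against 51.7% of all genes). Their median was 0.181 with the main scaling, 0.175 with DESeq2 size factors and 0.156 under scaling by total counts. ZNF473, which takes part in histone mRNA processing, had 20.1, 23.5 and 19.7 CPM in fed and 9.82, 12.4 and 10.7 CPM in starved libraries (0.94, SE 0.13, edgeR adjusted p = 8.18e-05). ZNF24 had 104, 136 and 126 CPM, against 83.3, 76.6 and 91.5 CPM (0.54, SE 0.09), and ZKSCAN2 had 70, 79 and 102 CPM, against 51.0, 55.4 and 48 CPM (0.70, SE 0.12). ZNF473 and ZKSCAN2 overlap genes on the opposite strand. The separation was complete but the gaps were small next to those of EGR1. Members on chromosome 19, where many such genes are clustered, had a median of 0.23 (222 genes, 8 higher), members elsewhere 0.16 (299 genes, 9 higher and 1 lower) and other genes of chromosome 19 −0.01 (933 genes, 6 higher and 1 lower). Leaving out 1 library gave between 9 (without 1 h fed replicate 2) and 27 (without 1 h fed replicate 1) higher members.

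Further factors and regulators among the higher genes include PLAGL2, a zinc finger activator outside the symbol families, at 28.5, 34.8 and 29.5 CPM in fed and 19.2, 13.7 and 14 CPM in starved libraries (0.99, SE 0.11, edgeR adjusted p = 6.69e-06). SERTAD1, a cofactor of E2F and cyclin-dependent kinases, had 29.6, 21.4 and 25 CPM, against 11.1, 12.3 and 12.5 CPM (1.08, SE 0.20). EIF4A2, a helicase of translation initiation, had 112, 115 and 111 CPM, against 75.6, 82.9 and 77.2 CPM (0.52, SE 0.09), and its fed values were nearly identical. KBTBD7, a substrate adaptor of ubiquitin ligases, had 5.42, 6.86 and 5.63 CPM after feeding, against 2.53, 1.34 and 2.85 CPM in starvation (1.43, SE 0.22). PLAGL2, SERTAD1 and EIF4A2 were chosen after their values were seen. All 4 were called with any 1 library left out, and KBTBD7 lost its call (adjusted p = 0.0874) when edgeR was fitted on only the 2 groups. KBTBD7 and EIF4A2 overlap genes on the opposite strand.

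Some noncoding RNAs were also called, and their lifetimes were not measured. MIR22HG, the host transcript of miR-22, had 4.41, 7.97 and 10.5 CPM in fed libraries, against 0.875, 1.67 and 2.02 CPM in starved libraries (2.31, SE 0.37, edgeR adjusted p = 0.00121). SNHG12, a host gene of small nucleolar RNAs, had 25.7, 39.7 and 37.2 CPM, against 15.2, 13.4 and 17.4 CPM (1.16, SE 0.18). In both, 1 h fed replicate 1 was the lowest fed library and still above all starved ones. SNHG12 overlaps a gene on the opposite strand and was the only call among 17 host genes of small nucleolar RNAs, whose median was 0.04. MALAT1, a nuclear RNA, had 61.5, 38 and 49.5 CPM, against 16.9, 18.2 and 16.7 CPM, and was not called (1.52, SE 0.38, adjusted p = 0.132). Of 13 long noncoding RNAs listed as nuclear or short-lived and tested, 1 rose, 1 fell (KCNQ1OT1) and 11 were not called. The call of KCNQ1OT1 held in 1 of the 6 fits with 1 library left out.

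Many counts lay in ENSG00000280614, ENSG00000280800 and ENSG00000281181, annotated as long noncoding RNAs of 923 bases on chromosome 21. Each had 3456, 2039 and 2158 CPM in fed libraries, against 574, 610 and 700 CPM in starved libraries, and these values are identical for the 3 genes. Summed over the 3 genes, the TMM-scaled levels were 10366.5, 6116.7 and 6472.8 CPM after feeding and 1722.5, 1829.7 and 2100.4 CPM in starvation. The log2 fold change was 2.02 (SE 0.26, edgeR adjusted p = 0.00253), with a call in all 6 fits with 1 library left out. All 923 bases of each lie inside an 18S ribosomal RNA segment (RNA18SN1, RNA18SN2 and RNA18SN3 of RefSeq, GRCh38.p14), and they are annotated on the minus strand. Without the strand of counting, reads of ribosomal RNA and of these genes cannot be told apart.

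Replication-dependent histone genes, whose mRNAs normally lack poly(A) tails, stood higher on balance. Of 48 listed, 24 passed the filter, 3 rose, 0 fell and 21 were not called, with positive values in 20 and a median log2 fold change of 0.45. H4C14 had 28.2, 31.4 and 25.8 CPM in fed libraries, against 11.1, 5.77 and 11.2 CPM in starved libraries (1.62, SE 0.25). H1-4, a linker histone, had 7.44, 4.49 and 6.61 CPM, against 2.33, 2.17 and 0.919 CPM (1.76, SE 0.33), and H4C8 had a log2 fold change of 1.58 (SE 0.36). H3C14 and H3C15, outside the list and identical in counts, had 6.70, 5.34 and 6.97 CPM, against 3.30, 2.59 and 1.56 CPM (1.35, SE 0.23), with an adjusted p of 0.0972 when edgeR was fitted on only the 2 groups. H4C14 and H3C14 overlap on opposite strands, and histone genes share near-identical sequence, so single members are uncertain. H1-4 lost its call without starved replicate 3, and H4C8 without 1 h fed replicate 3, starved replicate 2 or starved replicate 3; without starved replicate 3, 1 of the 24 was called. The 18S-overlapping RNAs were higher in the same 3 fed libraries, and their part in the histone result was not tested.

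Of the metallothionein genes, whose products bind zinc and copper, 1 rose. MT1X had 2.11, 5 and 3.22 CPM in fed libraries, against 0.680, 0.418 and 0.367 CPM in starved libraries (2.82, SE 0.36, edgeR adjusted p = 4.42e-05). All starved values were close to the level of a few counts, and the call held with any 1 library left out. MT1F (1.00) and MT2A (0.41), and SLC30A1, the zinc exporter that is induced by zinc (0.36, SE 0.15), were not called, so 1 of 7 tested members of the list rose. Metallothioneins are near-identical in sequence, and reads may be shared among them.

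Few genes of biosynthesis were called at this time. Of 42 ribosome assembly genes, 0 were called by edgeR, DESeq2 or limma-voom, with 34 positive values and a median of 0.08 (0.05 with total counts). At an unadjusted p under 0.05, 9.28% of all genes tested passed (1524 of 16414), and 4 of the 42 (9.52%) is close to that share. NOP56, one of the 4, encodes a core protein of small nucleolar ribonucleoproteins (0.32, SE 0.09). Without 1 h fed replicate 1, 2 were called higher. Among 26 genes of cholesterol synthesis and uptake 0 were called by any of these tools (median −0.06, 1 at an unadjusted p under 0.05), and among 31 genes of ATF4 and amino acid supply 1 fell, STC2, a secreted stress glycoprotein (−0.37, SE 0.08), which was called in 2 of the 6 fits with 1 library left out. The unfolded protein response list had 0 calls among 18 by any of these tools and 7 at an unadjusted p under 0.05 (38.9%), and 17 of its members were negative (median −0.12). XBP1, its central transcription factor, had 300, 282 and 284 CPM in fed and 341, 384 and 342 CPM in starved libraries (−0.30, SE 0.09, adjusted p = 0.14). Of 18 HIF targets, 16 were negative (median −0.15), with 0 calls by any of these tools and 2 at an unadjusted p under 0.05 (11.1%, against 9.28% of all genes). The HIF median was negative in all 6 fits with 1 library left out, but its size and the number of positive values varied. There were 6 positive values (median −0.07) without 1 h fed replicate 3 and 9 (median −0.07) when starved replicate 1 was dropped. When 1 h fed replicate 1 was dropped there was 1 (median −0.28). Without 1 h fed replicate 1, 2 genes were lower in the HIF list and 2 in the unfolded protein response list.

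Transcripts of the 13 mitochondrially encoded proteins were positive in all 13 cases, with a median of 0.43 and 0 calls by edgeR, DESeq2 or limma-voom, and 5 passed an unadjusted p under 0.05 (38.5%, against 9.28% of all genes). MT-ND2, a subunit of complex I, had 1788, 2318 and 2439 CPM in fed libraries, against 1037, 1449.5 and 1668 CPM in starved libraries (0.66, SE 0.20, adjusted p = 0.289). The fed and starved libraries of MT-ND2 did not overlap, and 7 of the 13 were higher without overlap, against 6.48% of all genes tested. Mitochondrially encoded RNA as a whole took 2.95% to 3.07% of counts in fed and 1.87% to 2.59% in starved libraries. The 13 values move with that share and are not independent. The remaining lists had 0 or 1 call. Among 17 genes of SRF and the actin cytoskeleton, 11 YAP targets, 18 clock genes, 13 NF-kappa-B targets, 16 heat shock genes, 10 embryonic kidney genes and 9 neural genes there were 0 calls by any of these tools. At an unadjusted p under 0.05 there were 1, 1, 2, 0, 0, 1 and 0 genes in that order, and medians lay between −0.07 and 0.06. Among 14 D-type cyclins and inhibitors of cyclin-dependent kinases the 1 call was CDKN1B, and among 13 glucocorticoid receptor targets it was MT1X.

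**Figure D3:**
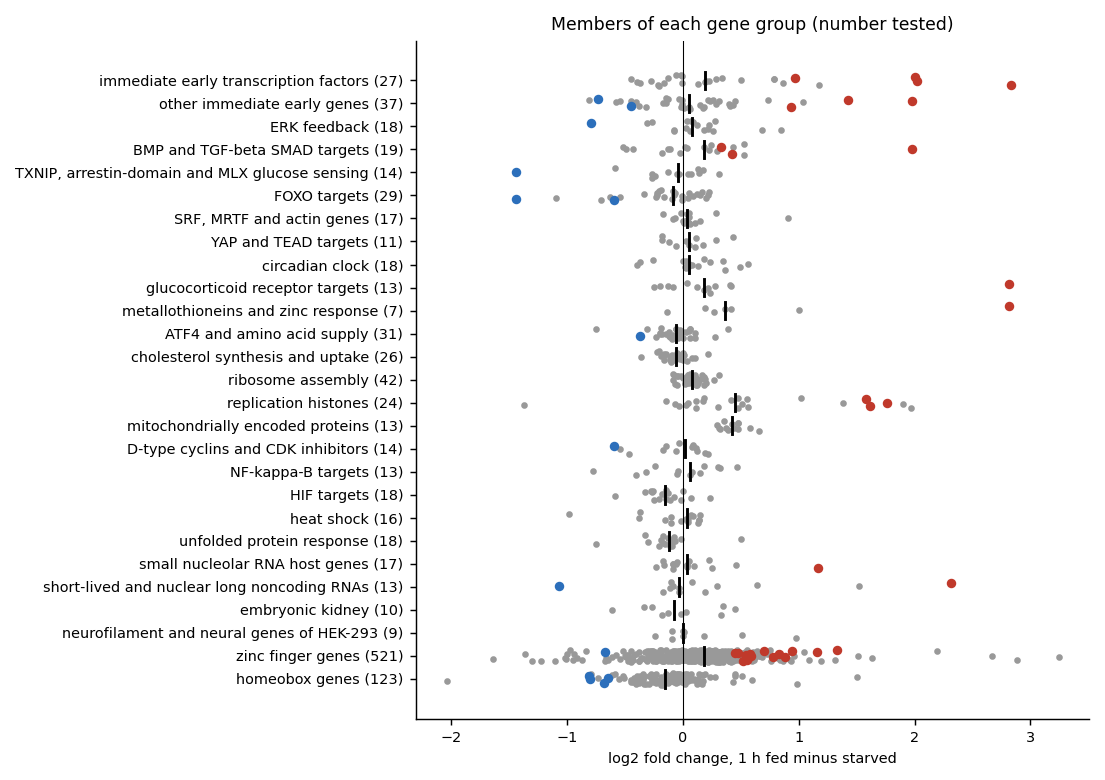
Log2 fold change of 1 h fed minus starved cells (horizontal axis) for each tested member of 25 lists and of the zinc finger and homeobox genes, with the number tested in brackets. Black bars are medians, red and blue points are genes called higher and lower, and grey points were not called; histones and mitochondrially encoded genes sit to the right of 0 at medians of 0.45 and 0.43, with 3 and 0 calls.

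The called genes spanned fewer bases of the genome and had fewer exons than the genes tested. The leading isoform of a gene, by GENCODE release 29, had a median of 4 exons among the 79 higher genes, 3 among the 27 lower genes and 7 among all genes tested with a known structure. Median gene lengths, introns included, were 13271, 5660 and 28371 bases in the same order. Median exonic lengths were 4855, 3067 and 4584 bases, so the higher genes were not shorter by that measure. Genes with at most 2 exons were 35.4% of the higher and 40.7% of the lower genes, against 17.1% of all. The single-exon genes called include the RNAs of chromosome 21 that share a row of values, and H3C14 and H3C15, which share another. Seen from the other side, 1.4% of single-exon genes were called, 1.4% of those with 2 exons, 0.818% with 3 to 5, 0.403% with 6 to 10 and 0.358% with more than 10.

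Isoform use was compared between the same 2 groups, in a fit on all 18 libraries, to see changes that totals hide. Of 10700 genes with at least 2 isoforms that passed the filter, 54 changed (edgeR diffSpliceDGE, Simes adjusted p under 0.05), which is 0.505%, and 0 of them were called in the gene test. ATXN2L encodes an RNA-binding protein of stress granules. ATXN2L-202 had 14.9, 6.79 and 11.4 CPM in fed libraries and was listed at 0 in each starved library, while the total of the gene was not called (288, 300 and 321 CPM, against 303, 313 and 272 CPM). With Torin1 this isoform was at 49.7, 43.7 and 52.0 CPM in fed and 31.3, 55.4 and 38.5 CPM in starved libraries, with overlap. SLC35C2-202, of a putative sugar transporter, was listed at 0 in each fed library, against 4.47, 6.73 and 7.99 CPM in starved libraries. FAAP100-201, of the Fanconi anaemia core complex, had 0.616, 2.75 and 4.81 CPM, against 0 in each starved library. In the fed and starved libraries with Torin1, SLC35C2-202 was at 6.09 to 13.4 CPM and FAAP100-201 at 23.6 to 48.8 CPM. RPS19-201, of a ribosomal protein gene and chosen after its values were seen, had 247, 227 and 231 CPM, against 123, 135 and 135 CPM. In 29 of the 54 the leading isoform overlapped between groups, as in TPT1-210 and CLTC-201, each above 0 in 1 library of 6, and in 53 at least 1 library was at 0. An estimated 0 can be a failed split of reads among isoforms. Of the 54 genes, between 22 (without 1 h fed replicate 1) and 30 (without starved replicate 3) were called again with 1 library left out, and 13 with only the 2 groups fitted. ATXN2L was called in all 6 fits with 1 library left out and RPS19 in none.

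The same feeding step in cells kept with Torin1 has its own libraries, which entered the comparison above only through filtering, scaling and the estimate of spread. There 45 genes were higher (0.274%) and 21 lower (0.128%) after 1 h, and with total counts as the scaling the split was 27 to 34. Leaving out 1 library gave between 22 calls (without starved Torin1 replicate 2) and 45 (without starved Torin1 replicate 1). Of the 79 genes that rose without Torin1, 5 also rose with it, namely EGR1, EGR3, FOSB, ID1 and MT1X, and of the 27 that fell, TXNIP and GAS1 also fell. Across the 79, 62 values were positive with Torin1 and 17 negative, with a median of 0.14, against a median of 0.02 for all genes. Across the 27, 19 were negative and 8 positive, with a median of −0.19. FOSB had 18.7, 33.3 and 37 CPM in fed and 4.18, 1.84 and 2.9 CPM in starved libraries with Torin1, and ID1 had 16.5, 24.6 and 23 CPM, against 5.29, 2.97 and 4.56 CPM. The log2 fold changes with Torin1 were 3.30 for FOSB, 2.31 for ID1, 2.89 for EGR1, 1.43 for MT1X and −1.01 for GAS1. None of these genes was called in the test of the difference between the states given below. EGR1 averaged 24.3 CPM in fed and 3.22 CPM in starved libraries with Torin1, against 105 and 14.8 CPM without it. Of the immediate early transcription factors, 9 of 27 rose and 1 fell with Torin1, with a median of 0.52. Zinc finger genes had 0 calls by edgeR among 521 with Torin1 (71 at an unadjusted p under 0.05, which is 13.6% against 11.1% of all genes, 6 by DESeq2 and 1 by limma-voom) and a median of 0.07 (0.02 with total counts), and the 24 histone genes 0 calls by any of the 3 tools (3 at an unadjusted p under 0.05), with a median that changed sign with the scaling (0.0014, and −0.00069 with DESeq2 size factors). The 11 genes whose response differed by the test given below include no member of the 521. They do include the histone genes H4C14 and H4C8. A different response of zinc finger genes with Torin1 was thus not shown.

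**Figure D4:**
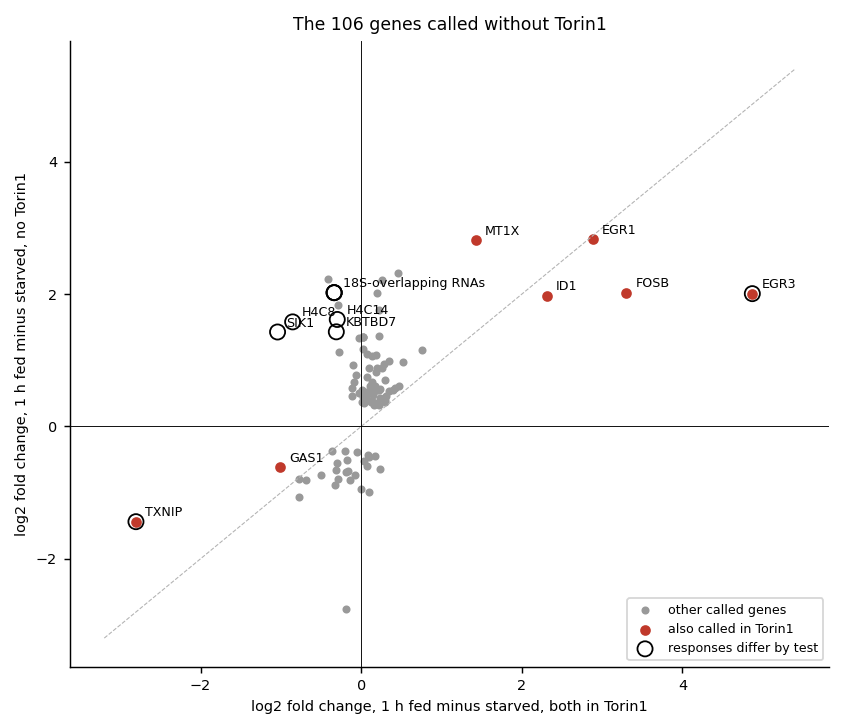
Log2 fold change of 1 h fed minus starved cells without Torin1 (vertical axis) against the same in Torin1 (horizontal axis) for the 106 genes called without it; the dashed line marks equal values. Red points, among them EGR1, FOSB, EGR3, ID1, MT1X, TXNIP and GAS1, were called in both, and ringed genes differed between the states by test.

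Whether the response differed with Torin1 was tested directly, and 11 genes passed (0.067%), 2 with a higher and 9 with a lower log2 fold change in Torin1. KBTBD7 had 13.7, 14 and 15 CPM in fed and 19.4, 16.2 and 17.4 CPM in starved libraries with Torin1, so it rose without Torin1 and was not called with it. Its starved libraries without Torin1 stood at 2.53, 1.34 and 2.85 CPM, so its starved level was higher with Torin1. The difference of the log2 fold changes was −1.74 (SE 0.27, edgeR adjusted p = 0.00363). SIK1 differed by −2.47 (SE 0.49), H4C8 by −2.43 (SE 0.49), H4C14 by −1.92 (SE 0.33) and the 18S-overlapping RNAs by −2.36 (SE 0.35). The starved means of these were also higher with Torin1. SLC30A1 had 57.0, 36.5 and 35.6 CPM in fed and 12.7, 11.9 and 9.12 CPM in starved libraries with Torin1, and its response was larger there by 1.56 (SE 0.22). Without Torin1 it had 51.7, 63.0 and 65.7 CPM in fed and 46.1, 48.2 and 45.8 CPM in starved libraries, so its starved levels were lower with Torin1. These counts rest on few libraries, since leaving out 1 gave between 3 and 39 genes, with the 3 without 1 h fed Torin1 replicate 2 or starved Torin1 replicate 3 and the 39 without 1 h fed replicate 1.

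Levels at 4 h are given beside those at 1 h for the genes named above; both times are set against the same starved libraries, so they are not independent. EGR1 averaged 14.8 ± 5.5 CPM in starved cells, 105 ± 42 CPM at 1 h and 12 ± 2.7 CPM at 4 h (SD, n = 3 each, as for the means that follow). FOSB averaged 4.66 ± 1.5, 19 ± 5.1 and 3.83 ± 0.91 CPM at these times, and EGR3 3.59 ± 1.1, 14.4 ± 2.8 and 1.39 ± 0.41 CPM. The 4 h means of all 3 were below the starved means, but EGR1 and FOSB libraries overlapped between 4 h and starvation. Log2 fold changes of 4 h fed minus starved were −0.30 (SE 0.37) for EGR1 and −0.28 (SE 0.35) for FOSB, both with edgeR adjusted p = 0.56. For EGR3 the value was −1.36 (SE 0.36, edgeR adjusted p = 0.00317). MT1X averaged 0.488 ± 0.17, 3.44 ± 1.5 and 74.3 ± 3.8 CPM, KBTBD7 2.24 ± 0.8, 5.97 ± 0.78 and 24 ± 2.1 CPM, and H4C14 9.35 ± 3.1, 28.5 ± 2.8 and 48.2 ± 11 CPM, each with its highest mean at 4 h. ID1 averaged 3.37 ± 0.31, 13.3 ± 3.3 and 18 ± 2.6 CPM, and TXNIP 43.1 ± 5.2, 15.9 ± 2.9 and 19.2 ± 3.1 CPM. CDKN1B fell by 0.60 at 1 h on the log2 scale and stood at −0.09 at 4 h, while PLAGL2 was at 0.99 and 3.10.

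**Figure D5:**
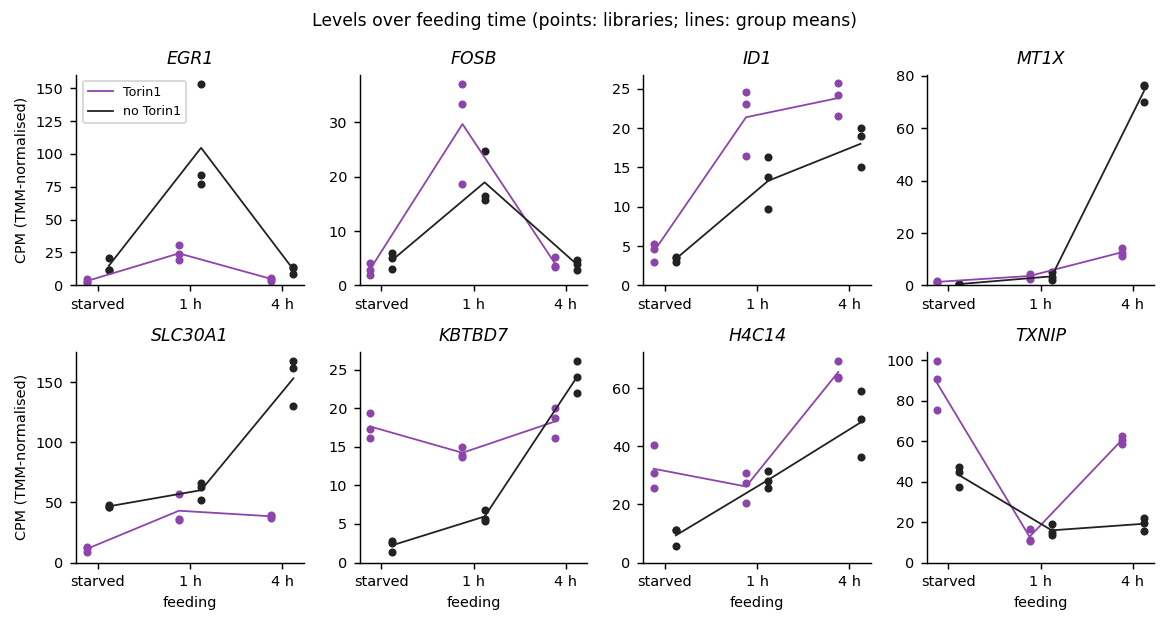
Level of 8 genes in CPM (vertical axis, linear and starting at 0) in starved cells and after 1 h and 4 h of feeding (horizontal axis), with Torin1 in purple and without it in black. Points are single libraries and lines join means of 3; EGR1 and FOSB peak at 1 h in both states, while MT1X without Torin1 is far higher at 4 h.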

How the data were processed

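Total RNA was sequenced in HEK-293E cells. Per the submitters' processing notes, STAR, RSEM and DESeq2 were used; versions, the human genome build and the strand setting are not stated there. The deposited values are expected counts (estimated by RSEM, per the labels) for 60623 genes and 227368 isoforms, of which 3.32% of gene values were not whole; they were rounded. Genes were tested with edgeR 4.0.16 (R 4.3.3): TMM scaling, filterByExpr with a minimum count of 10, 6 group means over 18 libraries, quasi-likelihood test with 12 residual degrees of freedom, and Benjamini-Hochberg adjustment over 16414 genes. A call is an adjusted p under 0.05, and the SE is the log2 fold change divided by the root of F. Isoform use was tested with diffSpliceDGE. The scripts were tested on simulated data. Alternatives were DESeq2 1.42.0, limma-voom (limma 3.58.1), other scalings and filters, a replicate block and leaving out each library. Symbols came from a gene name table for 60295 IDs and from GENCODE release 29 for 309, and 19 had none. Gene structure came from GENCODE release 29.

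Named genes were the 15 largest rises and the 12 largest falls among called genes without overlap between groups and with a mean of at least 5 CPM in the higher group, the markers EGR1, FOSB, EGR3, ID1 and TXNIP, called members and the 3 smallest p-values of each list, genes whose response differed with Torin1, and the 5 leading isoform changes. Other genes described were chosen after their values were seen. Members and lists were chosen with earlier results of these data known.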

Additional observations from a re-analysis of the deposited data

Results flagged for a closer look

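The response to 1 h of feeding differed with Torin1 for 11 genes by a test of the difference itself (edgeR, adjusted p under 0.05), given as the log2 fold change with Torin1 minus that without. EGR3 (2.86) and SLC30A1 (1.56) had a more positive response with Torin1. EGR3 averaged 14.4 CPM in 1 h fed and 3.59 CPM in starved libraries without Torin1, and 16.2 and 0.529 CPM with it. SLC30A1 averaged 60.1 CPM in 1 h fed and 46.7 CPM in starved libraries without Torin1, and 43 and 11.2 CPM with it. The starved means of both were thus lower with Torin1, and those of EGR3 lay close to the level of a few counts there. TXNIP (−1.37) and its paralogue ARRDC4 (−0.77) had a more negative one. TXNIP stood at 16.5, 11.3 and 10.4 CPM in 1 h fed and 99.7, 90.6 and 75.4 CPM in starved libraries with Torin1. ARRDC4 had 25.5, 20.1 and 23.3 CPM in 1 h fed and 48.5, 41.8 and 37.4 CPM in starved libraries with Torin1. KBTBD7 (−1.74), SIK1 (−2.47), H4C14 (−1.92), H4C8 (−2.43) and ENSG00000280614, ENSG00000280800 and ENSG00000281181 (−2.36 each) rose without Torin1 and were not called with it. Their starved means were higher with Torin1, at 17.6 against 2.24 CPM for KBTBD7 and 32.3 against 9.35 CPM for H4C14. They were 2.97 against 1.13 CPM for H4C8, 3.52 against 2.06 CPM for SIK1 and 1552 against 628 CPM for each ENSG00000280614-type RNA. Fed means were higher with Torin1 for KBTBD7 (14.2 against 5.97 CPM) and lower for the rest, with H4C14 at 26.2 against 28.5 CPM. With 1 library left out, between 3 and 39 genes differed, the 39 without 1 h fed replicate 1.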

How the results depend on the processing

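The 106 calls at 1 h became 164 with no filter on low counts, 173 with the DESeq2 Wald test, 39 with only the 2 groups fitted (33 of them among the 106), and 55 to 248 with 1 library left out. DESeq2 size factors (102), total counts (98), a minimum count of 30 (104), limma-voom (91) and leaving out mitochondrially encoded genes (105) stayed within 1.5 times. The 66 calls with Torin1 became 150 with no filter, 119 with the Wald test, 208 with only the 2 groups fitted and 22 to 45 with 1 library left out. The 11 differences became 77 with no filter, 43 with the Wald test, 3 with limma-voom, 4 with only the 4 groups fitted and 3 to 39 with 1 library left out. The cause was not tested. Replicate numbers were not treated as pairs in the main fit. Same-numbered fed and starved libraries correlated at 0.162, −0.0321 and 0.0176 in their deviations. The other pairs lay between −0.11 and 0.107. On component 1 of the principal component analysis, replicate 1 lay lowest in both groups (−24.7 in 1 h fed and −32 in starved libraries). Whether same-numbered libraries share an effect was not tested. With the replicate block there were 131 calls at 1 h, 110 with Torin1, 23 differences and 43 isoform calls. Isoform calls ranged from 38 to 59 against 54. Of the 54, 13 were called again with only the 2 groups fitted and 22 to 30 with 1 library left out. For single genes, 1155 values kept direction and side of the threshold, 84 lost the call, 16 gained it and 0 reversed. The 1155 include named genes that were not called in the main fit and stayed uncalled, so they do not measure how stable the calls are. Of the 106 calls, 22 held in all 15 settings. Depth limits genes of a few counts, among them starved MT1X.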
